A study of Macaca mulatta with 9 samples.

Results

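Described here are 10 aldehyde dehydrogenases, ALDH1A1, ALDH2, ALDH3A2, ALDH3B1, ALDH4A1, ALDH5A1, ALDH7A1, ALDH9A1, ALDH16A1 and ALDH18A1, in blood of macaques given extracellular vesicles; they are 10 of the 24371 genes in the deposited table. They were chosen by name with their values in the 3 groups already known, as deposited and after scaling, so the measured levels in all 9 libraries entered the choice. Their differences between groups are therefore given as a description, and no test of a member is offered as evidence.

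Aldehyde dehydrogenases oxidise reactive aldehydes to carboxylic acids with NAD or NADP as the electron acceptor. The family clears acetaldehyde and lipid aldehydes, makes retinoic acid from retinaldehyde, and carries out steps in the breakdown or synthesis of proline, lysine, GABA and carnitine. In blood, ALDH1A1 is a cytosolic enzyme known from red cells, and high aldehyde dehydrogenase activity is a marker used to sort blood progenitor cells.

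RNA from whole blood was sequenced in 9 rhesus macaques (Macaca mulatta), all labelled as wild type (WT), with 3 animals in each of 3 randomly assigned groups. The PBS group received the vehicle, the FBMSC_EV group received extracellular vesicles whose source the labels abbreviate as FBMSC, and the ABPC_EV group received vesicles of antler blastema progenitor cells. Sample descriptions call the PBS animals Old, the series title speaks of age-related phenotypes, and the labels used here give no dose, duration, sampling time or age in years. Each library comes from a different animal.

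Values are per-million values, which behave as if divided by gene length, so that levels can be compared between genes. Red cell transcripts filled most of each library: 25 erythroid marker genes made up 88.7% to 93.1% of the summed values under PBS, 82.8% to 88.0% under FBMSC_EV and 71.3% to 82.9% under ABPC_EV. Markers of red cells, neutrophils, monocytes, T, NK and B cells and platelets were all detected, and none of those in the table was at 0 in every library. Because the total is fixed, a lower red cell share raises the sum of the listed values of all other genes. The factors that bring the median gene to the same level in every library (median-ratio scaling) were 0.330 to 0.767 under PBS, 0.957 to 1.21 under FBMSC_EV and 1.52 to 2.52 under ABPC_EV. FBMSC_EV replicate 1 and ABPC_EV replicate 1 had near-equal erythroid shares (82.8% and 82.9%) and factors of 0.985 and 1.52. The part of the red cell share in the factors was not tested. Each member is therefore given on both scales. In bulk blood, fewer cells of a type and less RNA per cell cannot be told apart. Reads recovered from the values, over the genes that could be resolved, numbered 3500395 to 8386631 per library.

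ALDH2, the mitochondrial enzyme that oxidises acetaldehyde, had the highest mean level, 24.4 ± 6.96 after median-ratio scaling (SD over all 9 libraries). ALDH3A2, which oxidises long-chain fatty aldehydes, followed at 12.9 ± 5.93, and ALDH9A1, which acts in carnitine synthesis, at 12.2 ± 2.37. ALDH3A2 exceeded ALDH9A1 in only 4 of 9 libraries, so the order of this pair is not settled. ALDH1A1, which oxidises retinaldehyde, averaged 7.37 ± 3.41 and lay below ALDH9A1 in 8 of 9 libraries. ALDH16A1, a family member whose mammalian form lacks the catalytic cysteine, averaged 4.33 ± 1.14 and lay below ALDH1A1 in 6 of 9. Lower still were ALDH18A1 (2.11 ± 0.569), which makes pyrroline-5-carboxylate for proline synthesis, and ALDH3B1 (1.82 ± 0.843), which acts on aldehydes from lipid oxidation. The lowest were 3 mitochondrial or amino acid enzymes: ALDH4A1 of proline breakdown (0.833 ± 0.282), ALDH5A1 of the GABA shunt (0.623 ± 0.194) and ALDH7A1 of lysine breakdown (0.578 ± 0.214). Their scaled values overlapped, with ALDH4A1 above ALDH5A1 in 6 of 9 libraries and ALDH5A1 above ALDH7A1 in 6 of 9.

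**Figure D1:**
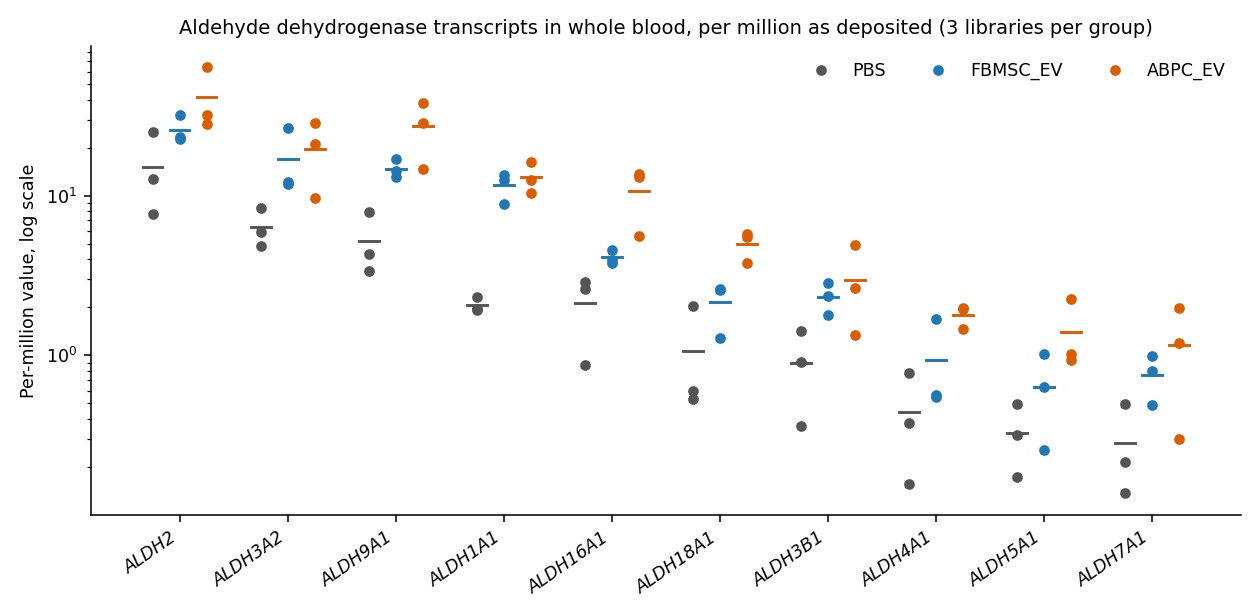
Per-million value (log axis) of each member in each library as deposited, by group; points are libraries and short bars are group means. ALDH1A1 is near 2 in the 3 PBS libraries and between 8.86 and 16.4 in the 6 libraries of the vesicle groups.

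ALDH1A1 was low in blood of PBS animals and higher in both vesicle groups. As deposited, it stood at per-million values of 2.32, 1.91 and 1.96 under PBS. Under FBMSC_EV it stood at 13.5, 12.6 and 8.86, and under ABPC_EV at 10.4, 16.4 and 12.5. The PBS libraries were close together, every vesicle library lay above every PBS library, and the vesicle groups overlapped each other. On this scale 85.4% of all genes tested were separate as higher for ABPC_EV against PBS, and 50.9% for FBMSC_EV against PBS. Group means were 2.06 ± 0.222 for PBS, 11.6 ± 2.45 for FBMSC_EV and 13.1 ± 3.03 for ABPC_EV (SD, n = 3 each). These are ratios of means of 5.64 for FBMSC_EV to PBS and 6.35 for ABPC_EV to PBS. The values rest on 109, 95 and 76 recovered reads under PBS, 501, 463 and 356 under FBMSC_EV, and 373, 398 and 336 under ABPC_EV.

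After median-ratio scaling, the FBMSC_EV group stood apart from both others for ALDH1A1. Scaled values were 7.02, 4.07 and 2.56 under PBS, 13.7, 10.4 and 9.25 under FBMSC_EV, and 6.85, 7.56 and 4.96 under ABPC_EV. The lowest FBMSC_EV library lay above the highest PBS and the highest ABPC_EV library, while PBS and ABPC_EV overlapped. Of all genes tested, 4.96% had FBMSC_EV separate above PBS and 6.8% had ABPC_EV separate below FBMSC_EV. The mean under FBMSC_EV was 11.1 ± 2.29, against 4.55 ± 2.27 under PBS and 6.46 ± 1.35 under ABPC_EV (SD, n = 3 each). In the PBS group, replicate 1 held the highest scaled value and also the lowest median-ratio factor (0.330).

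Counted against all transcripts outside the 25 erythroid markers, ALDH1A1 differed in level between all 3 groups without overlap. Its per-million value among these transcripts was 33.5, 17.2 and 17.3 under PBS, 78.5, 74.0 and 73.8 under FBMSC_EV, and 60.8, 57.0 and 51.1 under ABPC_EV. Among the 10571 genes tested outside these markers, 38.6% were separate as higher and 1.06% as lower for ABPC_EV against PBS. The shares were 16.9% and 0.719% for FBMSC_EV against PBS, and 14% and 1.57% for ABPC_EV against FBMSC_EV. Within the family, where no scaling enters, its share of the summed level of the 10 members was 11.3%, 6.28% and 3.84% under PBS. That share was 15.9%, 16.2% and 11.3% under FBMSC_EV and 13.7%, 9.89% and 9.48% under ABPC_EV. All FBMSC_EV libraries lay above all PBS libraries in this share, but PBS replicate 1 (11.2924%) and FBMSC_EV replicate 3 (11.3159%) were nearly equal. The ratio of ALDH1A1 to ALDH2 overlapped between the groups: 0.2995, 0.150 and 0.0778 under PBS, 0.597, 0.540 and 0.276 under FBMSC_EV, and 0.373, 0.257 and 0.389 under ABPC_EV.

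**Figure D2:**
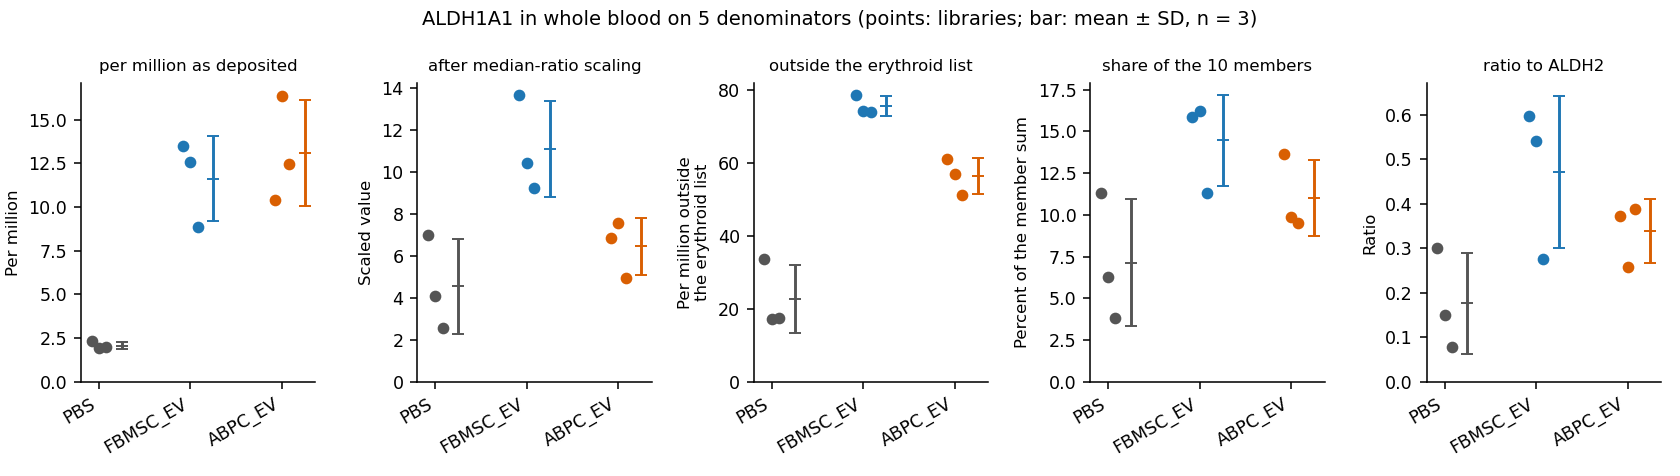
ALDH1A1 in each library against 5 denominators (vertical axes start at 0; the unit is on each axis); points are libraries and bars are the mean ± SD of 3 animals. FBMSC_EV libraries are the highest after scaling and outside the erythroid markers, while PBS libraries are lowest as deposited and outside the erythroid markers.

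ALDH2 shared only part of this pattern. As deposited it stood at per-million values of 7.74, 12.7 and 25.2 under PBS, 22.6, 23.3 and 32.0 under FBMSC_EV, and 28.0, 63.8 and 32.1 under ABPC_EV. Every ABPC_EV library lay above every PBS library, as for ALDH1A1 and for 85.4% of all genes tested. Unlike for ALDH1A1, PBS replicate 3 fell among the FBMSC_EV libraries. After scaling the values were 23.4, 27.1 and 32.8, then 22.9, 19.3 and 33.5, then 18.4, 29.5 and 12.7 in the same order of groups. The groups then overlapped, and the ABPC_EV mean of 20.2 ± 8.504 was 0.727 times the PBS mean of 27.8 ± 4.74 (SD, n = 3 each).

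ALDH3A2 averaged a per-million value of 6.40 ± 1.82 under PBS, 16.9 ± 8.47 under FBMSC_EV and 19.7 ± 9.41 under ABPC_EV as deposited (SD, n = 3 each). It had scaled values of 14.7, 12.6 and 11.0 under PBS, 27.1, 9.88 and 12.7 under FBMSC_EV, and 6.40, 13.1 and 8.37 under ABPC_EV. FBMSC_EV replicate 1 alone was high, and the same library had the highest summed level of the neutrophil (4616) and monocyte markers (991) after scaling. ALDH3B1 averaged 0.896 ± 0.525, 2.34 ± 0.533 and 2.97 ± 1.82 in the same order of groups as deposited (SD, n = 3 each). Its scaled values were 1.10, 3.003 and 1.19 under PBS, 2.90, 1.49 and 2.46 under FBMSC_EV, and 0.888, 2.28 and 1.04 under ABPC_EV, with all groups overlapping. The part of those marker genes in these values was not tested.

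ALDH9A1 had a narrow spread, with a scaled range of 1.64-fold over all 9 libraries, the smallest of the 10 members. Its scaled values were 10.2, 9.24 and 10.3 under PBS, 13.2, 14.1 and 14.98 under FBMSC_EV, and 9.71, 13.2 and 15.2 under ABPC_EV. All FBMSC_EV libraries lay above all PBS libraries, by a ratio of means of 1.42, while ABPC_EV overlapped both groups. As deposited its means were 5.20 ± 2.37 for PBS, 14.8 ± 2.01 for FBMSC_EV and 27.2 ± 11.8 for ABPC_EV (SD, n = 3 each).

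For ALDH16A1 and ALDH18A1, 2 of the 9 members tested, every ABPC_EV library lay above every FBMSC_EV library as deposited, as was the case for 50.5% of all genes tested. ALDH16A1 stood at per-million values of 0.872, 2.61 and 2.89 under PBS, 3.80, 4.57 and 3.98 under FBMSC_EV, and 5.59, 13.7 and 13.1 under ABPC_EV. ALDH18A1 stood at 0.532, 0.601 and 2.04, then 1.28, 2.62 and 2.56, then 3.78, 5.50 and 5.78 in the same order. After scaling, both overlapped in all 3 comparisons: ALDH16A1 averaged 3.99 ± 1.47, 3.93 ± 0.194 and 5.06 ± 1.33, and ALDH18A1 averaged 1.85 ± 0.724, 2.05 ± 0.698 and 2.44 ± 0.128 in the order PBS, FBMSC_EV, ABPC_EV (SD, n = 3 each).

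The amino acid enzymes with the lowest levels rested on few reads. ALDH4A1 had 11 to 92 recovered reads per library, ALDH5A1 18 to 136 and ALDH7A1 6 to 50. As deposited they averaged 0.439 ± 0.316, 0.329 ± 0.163 and 0.283 ± 0.189 under PBS, and 1.80 ± 0.293, 1.41 ± 0.745 and 1.16 ± 0.844 under ABPC_EV. The FBMSC_EV means lay between these for each gene. Scaled group means lay close together for ALDH4A1, at 0.767 ± 0.273, 0.846 ± 0.473 and 0.886 ± 0.0993, and for ALDH5A1, at 0.614 ± 0.0821, 0.591 ± 0.303 and 0.663 ± 0.219 under PBS, FBMSC_EV and ABPC_EV (SD, n = 3 each). ALDH7A1 averaged 0.506 ± 0.124, 0.716 ± 0.190 and 0.511 ± 0.298 in that order. All groups of these 3 genes overlapped after scaling.

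**Figure D3:**
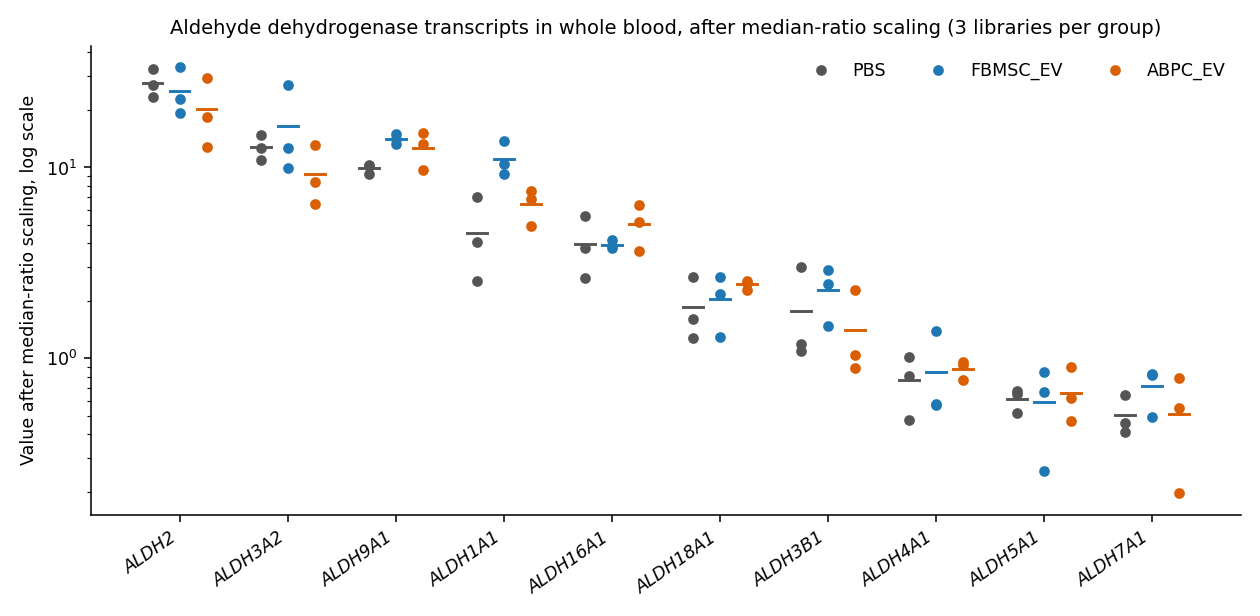
Value of each member after median-ratio scaling (log axis) in each library, by group; points are libraries and short bars are group means. FBMSC_EV libraries lie above all PBS libraries for ALDH1A1 and ALDH9A1, and these groups overlap for the other 8 members.

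Changes were then fitted over all genes with limma on log2(value + 1), for the 10596 genes that reached 1 in no fewer than 3 libraries. Shares and medians over all genes refer to these 10596, unless another number is given. Of the 10 members 9 entered. ALDH7A1 did not, since it reached 1 in 2 libraries only. ALDH4A1 reached 1 in 0 PBS libraries, 1 FBMSC_EV library and 3 ABPC_EV libraries, and ALDH5A1 in 0, 1 and 2, so both entered largely through the ABPC_EV group. As deposited, genes at 1 or more numbered 5393 to 8429 per PBS library and 10655 to 11941 per ABPC_EV library. The filter therefore admits more genes through ABPC_EV. This bears on the calls of ALDH4A1 and ALDH5A1, on the pathway and marker lists below and on the all-gene shares. The comparisons with PBS share the PBS libraries.

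For ABPC_EV against PBS as deposited, 9 of the 9 members tested passed an adjusted p of 0.05 as higher, where 90.9% of all genes tested did so and 0.0566% passed as lower. The 9 include ALDH4A1 and ALDH5A1, which entered the fit largely through ABPC_EV itself. Log2 changes of the 9 members ran from 0.82 for ALDH5A1 to 2.18 (SE 0.36) for ALDH1A1 and 2.16 (SE 0.42) for ALDH9A1, with a median of 1.44 beside a median of 1.41 over all genes. Leaving out PBS replicate 1 ended the call of ALDH3B1 (limma adjusted p = 0.0624) and of ALDH5A1 (0.0508), as did leaving out ABPC_EV replicate 2 for ALDH3B1 (0.0879, log2 change 0.66) and ABPC_EV replicate 3 for ALDH5A1 (0.062). Without the filter on low values ALDH3B1 had an adjusted p of 0.0515. With the erythroid markers taken out before the fit, none of the 9 passed, the smallest adjusted p being 0.086. All ABPC_EV libraries lay above all PBS libraries for 8 members, every one tested but ALDH3B1, as they did for 85.4% of genes (the reverse held for 0.0661% of genes and 0 members). Relative to the all-gene median, ALDH1A1 was higher by 0.77, and 244 genes had a larger change.

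After scaling, 0 members and 0 of all genes passed in that comparison by limma (0% in each direction; 1080 genes at an unadjusted p under 0.05, and 1 gene by limma-voom on recovered reads). ALDH1A1 then had a log2 change of 0.49 (SE 0.30), ALDH9A1 of 0.31 (SE 0.20), ALDH16A1 of 0.30 (SE 0.24) and ALDH18A1 of 0.30 (SE 0.22). ALDH2 had -0.50 (SE 0.32), ALDH3A2 -0.46 (SE 0.36) and ALDH3B1 -0.18 (SE 0.31), each positive as deposited. Without PBS replicate 2 the scaled change of ALDH3B1 was 0.12, so its sign after scaling rested on that library. The member median was 0.10, beside 0.00 over all genes. No member's libraries were separate between the groups; 6.45% of genes were so as higher and 7.51% as lower.

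For FBMSC_EV against PBS as deposited, 1 of the 9 members passed as higher, ALDH1A1, where 0.255% of all genes did (27 of 10596) and 0.00944% passed as lower. Its log2 change was 2.03 (SE 0.36), and 13 genes had a larger change. It passed in each of the 9 fits that left out a library, but not without the filter on low values (adjusted p = 0.209), with the erythroid markers taken out (0.177, log2 change 1.76), or after median-ratio scaling (0.734). The number of all genes called in this comparison rested on single libraries, reaching 4526 without PBS replicate 3, when ALDH2, ALDH3A2, ALDH9A1 and ALDH18A1 passed as well. ALDH9A1 also passed without ABPC_EV replicate 2 (limma adjusted p = 0.0406) and in a fit of the 6 libraries compared (0.0261), as did ALDH3A2 in the latter (0.0489). Of all 10596 genes, 460 passed without ABPC_EV replicate 2 and 1063 in the fit of 6 libraries, against 28 in the main fit. Libraries did not overlap for 5 members as deposited (ALDH1A1, ALDH3A2, ALDH3B1, ALDH9A1 and ALDH16A1), beside 50.9% of all genes as higher and 0.0849% as lower.

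With scaled values, 0 members and 0 genes passed for FBMSC_EV against PBS by limma (0% in each direction; 512 genes at an unadjusted p under 0.05, and 0 genes by limma-voom). ALDH1A1 had a log2 change of 1.19 (SE 0.30), which 35 of 10596 genes exceeded, and on scaled recovered reads a limma-voom change of 1.47 (SE 0.35), which 95 of 10590 genes exceeded. Leaving out each library moved the scaled change between 0.91, without PBS replicate 3, and 1.497, without PBS replicate 1. ALDH9A1 had 0.47 (SE 0.20), and the other 7 members lay between -0.16 for ALDH2 and 0.29 for ALDH3B1. Libraries were separate as higher for 2 members, ALDH1A1 and ALDH9A1, beside 4.96% of all genes as higher, and as lower for 0 members, beside 4.71%.

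For ABPC_EV against FBMSC_EV as deposited, 0 of 9 members passed by limma, where 0.585% of all genes did as higher and 0.0566% as lower (2 members, ALDH16A1 and ALDH18A1, had an unadjusted p under 0.05). The log2 changes were 1.12 (SE 0.38) for ALDH16A1, 0.95 (SE 0.34) for ALDH18A1 and 0.16 (SE 0.36) for ALDH1A1, beside an all-gene median of 0.71. ALDH16A1 and ALDH18A1 passed without PBS replicate 3 (limma adjusted p = 0.0478 and 0.0477) or ABPC_EV replicate 1 (0.0255 and 0.0319), and ALDH9A1 without ABPC_EV replicate 1 (0.0382). Of all 10596 genes, 2512 passed without PBS replicate 3 and 4863 without ABPC_EV replicate 1, against 68 with all libraries. Libraries were separate as higher for 2 members, beside 50.5% of all genes as higher and 0.17% as lower. With scaled values, ALDH1A1 had a log2 change of -0.70 (SE 0.30), and its libraries were separate as lower, beside 6.8% of all genes as lower and 4.23% as higher; 0 genes passed by limma (568 at an unadjusted p under 0.05, and 0 by limma-voom).

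**Figure D4:**
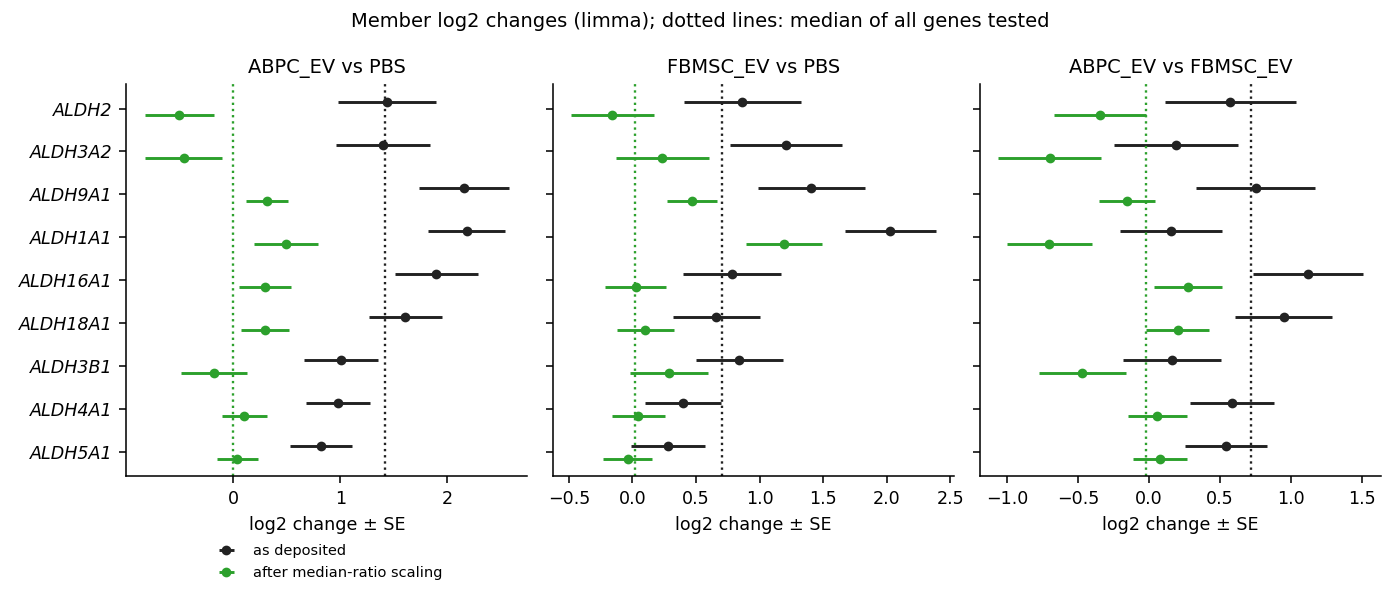
log2 change ± SE of the 9 members tested, from limma, for the 3 comparisons, as deposited and after median-ratio scaling; dotted lines mark the median of all genes tested on each scale. As deposited all points lie above 0, and after scaling ALDH1A1 is at 1.19 for FBMSC_EV against PBS and at -0.70 for ABPC_EV against FBMSC_EV.

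Genes whose scaled log2 values followed those of ALDH1A1 most closely over the 9 libraries, among 9217 tested genes with a symbol, were MAP2K1 (Pearson r = 0.972), TNFAIP2 (0.920), SLC46A1 (0.914), PTGIR (0.903) and TBC1D8 (0.899). MAP2K1 encodes the kinase MEK1, SLC46A1 a folate transporter and PTGIR the prostacyclin receptor. MAP2K1 had scaled values of 8.003, 6.20 and 5.51 under PBS, 11.4, 9.28 and 8.78 under FBMSC_EV, and 7.40, 7.82 and 7.46 under ABPC_EV. For ALDH2 the closest were ECHS1 (r = 0.960), CEACAM3 (0.941), UNC93B1 (0.908), CPSF3 (0.900) and GNG7 (0.880). ECHS1 encodes a mitochondrial enzyme of fatty acid oxidation, and UNC93B1 a transporter of Toll-like receptors. ALDH1A1 and ALDH2 did not follow each other (r = -0.13). These are the highest of many correlations, they share libraries and scaling factors, and they include the differences between groups.

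Of 9 further family members in the table, ALDH6A1, a mitochondrial enzyme of valine breakdown, entered the fit. It passed as higher for ABPC_EV against PBS as deposited (log2 change 1.78, SE 0.33, limma adjusted p = 0.000417), beside 90.9% of all genes tested and an all-gene median of 1.41. Its mean per-million values were 0.894 ± 0.378 under PBS and 5.64 ± 2.21 under ABPC_EV. ALDH6A1 did not pass for FBMSC_EV against PBS (0.80, limma adjusted p = 0.0937) or ABPC_EV against FBMSC_EV (0.98, 0.0737). After scaling its change under ABPC_EV was 0.44 (SE 0.17, limma adjusted p = 0.398), the means then being 1.71 ± 0.366 and 2.69 ± 0.527 (SD, n = 3 each).

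In the retinoid pathway, in which ALDH1A1 acts, 8 of 8 tested genes had a positive change for ABPC_EV against PBS as deposited. Of these, 7 passed as higher, beside 90.9% of all genes, and the list had a median log2 change of 1.47 beside 1.41. Among them, RDH11, a retinal reductase, rose by 1.73 (SE 0.36) and RARA, a retinoic acid receptor, by 1.47 (SE 0.50). After scaling 0 passed, with changes of 0.25 for RDH11 and -0.46 for RARA. For FBMSC_EV against PBS 0 of 8 passed on either scale by limma, and 5 as deposited and 1 after scaling had an unadjusted p under 0.05. The smallest p as deposited was that of DHRS3, which reduces retinaldehyde to retinol, with a log2 change of 1.53 (SE 0.41, adjusted p = 0.0791) as deposited and 0.70 (SE 0.29) after scaling. DHRS3 averaged 4.76 ± 0.919 under PBS, 8.48 ± 2.26 under FBMSC_EV and 5.52 ± 2.39 under ABPC_EV after scaling (SD, n = 3 each).

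The counts of the other pathways for ABPC_EV against PBS as deposited stand beside 90.9% of all genes called higher and an all-gene median of 1.41. All 6 tested genes of alcohol and aldehyde reduction or oxidation rose (median log2 change 1.62), AKR7A2, an aldehyde reductase, by 1.63 (SE 0.36) and CAT, catalase, by 1.33 (SE 0.43). After scaling AKR7A2 had 0.03 and CAT -0.66. Of the genes of proline and glutamate metabolism, around ALDH4A1 and ALDH18A1, 6 of 6 rose (median 1.49), GLUD1, glutamate dehydrogenase, by 1.70 (SE 0.42), with -0.20 after scaling. In the GABA shunt and adjoining steps, around ALDH5A1, 4 of 4 rose (median 1.39), OGDH of the citric acid cycle by 1.76 (SE 0.40), with -0.08 after scaling.

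In the same comparison, counts again stand beside 90.9% and a median of 1.41 over all genes. Of lysine, choline and carnitine metabolism, around ALDH7A1 and ALDH9A1, 5 of 5 tested genes rose (median 1.15). SHMT2, a mitochondrial serine hydroxymethyltransferase, rose by 1.46 (SE 0.34), with -0.06 after scaling. DHTKD1 and SLC22A5 of this list reached 1 in ABPC_EV libraries only. Both therefore entered the fit through that group alone, which bears on their changes in the comparisons with ABPC_EV. For ether lipids, sphingolipids and fatty aldehydes, around ALDH3A2, 11 of 11 had a positive change (median 1.59) and 10 of 11 passed as higher. FAR1, a fatty acyl-CoA reductase, rose by 2.18 (SE 0.42) and SGPL1, which releases a fatty aldehyde from sphingosine 1-phosphate, by 1.76 (SE 0.40). After scaling these had 0.50 and -0.07. In these 5 lists 0 genes passed as deposited for FBMSC_EV against PBS or for ABPC_EV against FBMSC_EV, and 0 in any comparison after scaling, by limma. At an unadjusted p under 0.05 as deposited there were 0 to 6 genes per list for FBMSC_EV against PBS, and 2 to 4 for ABPC_EV against FBMSC_EV. For FBMSC_EV against PBS the genes with the smallest p in their lists included AKR1A1 (log2 change 1.15), OGDH (0.98), GCDH (0.56) and GNPAT (1.23), with limma adjusted p between 0.0876 for GNPAT and 0.164 for GCDH. For ABPC_EV against FBMSC_EV they included AKR7A2 (0.87), PYCR3 (1.16), SUCLG2 (1.05) and SLC22A5 (0.89), and RDH14 (0.93) in the retinoid list, with limma adjusted p between 0.0737 and 0.0774.

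Markers of blood cell types were summed on the same scales as ALDH1A1. The 9 monocyte markers in the table, each above 0 in at least 1 library, summed to 283 to 458 under PBS, 289 to 991 under FBMSC_EV and 260 to 342 under ABPC_EV after scaling. The 13 neutrophil markers summed to 974 to 3369, 1031 to 4616 and 652 to 2052, and the 8 platelet markers to 180 to 219, 112 to 252 and 62.3 to 423, in the same order. The 9 NK and cytotoxic markers summed to 124 to 385 under PBS, 257 to 642 under FBMSC_EV and 231 to 429 under ABPC_EV, and the 8 B cell markers to 185 to 353, 81.0 to 221 and 83.8 to 245. Scaled median log2 changes for FBMSC_EV against PBS were 0.82 for the NK and cytotoxic (7 of 8 tested positive), 0.43 for the monocyte (8 of 9), 0.20 for the T cell (7 of 11) and 0.12 for the neutrophil markers (7 of 13). They were -0.93 for the B cell (0 of 8), -0.50 for the platelet (0 of 7) and -0.02 for the eosinophil and basophil markers (2 of 5). For ABPC_EV against PBS they were 0.82 for the NK and cytotoxic (8 of 8), 0.45 for the T cell (10 of 11), 0.13 for the monocyte (7 of 9), 0.07 for the eosinophil and basophil (4 of 5), -0.06 for the platelet (3 of 7), -0.58 for the B cell (0 of 8) and -0.60 for the neutrophil markers (0 of 13). None of the marker genes in these lists passed after scaling by limma, and at most 2 of each list had an unadjusted p under 0.05 against PBS. The 25 erythroid markers, scaled, had a median log2 change of -0.47 for FBMSC_EV and -1.48 for ABPC_EV against PBS. Of them, 3 were positive for FBMSC_EV and 1 for ABPC_EV. An unadjusted limma p under 0.05 was reached by 2 erythroid markers for FBMSC_EV and by 20 for ABPC_EV, and 0 passed after adjustment. Relative to the erythroid sum, ALDH1A1 had a per-million value of 2.28 ± 0.181 under PBS, against 13.8 ± 3.30 for FBMSC_EV and 17.4 ± 5.26 for ABPC_EV (SD, n = 3 each). On this denominator each other member also had a higher mean in both vesicle groups than under PBS. ALDH9A1, for example, averaged 5.80 ± 2.75 under PBS, 17.5 ± 2.57 under FBMSC_EV and 36.2 ± 16.8 under ABPC_EV. The part of any of these cell types in the ALDH1A1 values was not tested.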

How the data were processed

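Whole-blood RNA of 9 macaques was sequenced from NEBNext Ultra libraries as paired-end 150 reads, per the labels' protocols, with genome build Mmul_10, per the submitters' processing notes. The authors deposited log2 values; read back from their sums, each is the log2 of a per-million value plus 0.5. Aligner, counter: not given in the sources used here.

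From these, log2(value + 1) was fitted with limma 3.58.1 (trend, R 4.3.3) for genes at 1 or more in at least 3 libraries, with all 9 libraries in 1 fit. Benjamini-Hochberg adjustment covered all 10596 genes, with a threshold of 0.05. Median-ratio factors were taken over 13350 genes above 0 in all libraries, and the same 10596 genes were then fitted. Whole reads were recovered by finding, per gene, a divisor that makes its values whole; 20677 of 21551 genes (95.9%) came out whole within 0.001, 858 more within 0.02, and 16, HBB and HBA among them, did not. The true reads of a gene could be a multiple of those recovered. Both fit and recovery were run on simulated data. For the fit these were scaled values with planted changes larger than any scaled member change here. Changes of the size seen in the members, and the shift in red cell share, were not simulated. Table symbols were used as gene names; 10 of 10 members were in the RefSeq gene table and 9 of 10 among the Ensembl symbols. That table has another assembly, so no coordinates are printed. Columns of other samples numbered 0.

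Named were all members, for each pathway list the genes that passed after scaling or, where none did, the gene with the highest mean (its values given for ABPC_EV against PBS) and, per comparison, that with the smallest p as deposited, and the 5 genes most correlated with ALDH1A1 and with ALDH2. Some genes that this rule names are not reported here. Members and lists were chosen with earlier results of these data known.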

Additional observations from a re-analysis of the deposited data

How the results depend on the processing

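Moves of member log2 changes were counted when larger than 1 residual SD. Using only the 6 libraries compared, adding the replicate block or dropping the filter leaves a change the same by construction. With 3 libraries per group, leaving out 1 library cannot move a change by more than 1 residual SD. These settings therefore say nothing on how stable the changes are. By limma-voom against the scaled fit, member changes moved by less than 1 residual SD. A pseudocount of 0.1 moved 12 of 54 by more, a pseudocount of 0.5 moved 2, and taking out the erythroid list moved 12. Median-ratio scaling moved 23 of 27 by more and reversed 3 others, called for ABPC_EV against PBS: ALDH2 to -0.50, ALDH3A2 to -0.46 and ALDH3B1 to -0.18, the last being -0.43 to 0.12 with each library left out (0.12 without PBS replicate 2). Reversal was counted only for members that had passed. Signs also changed for members that had not passed. For ABPC_EV against FBMSC_EV these were ALDH1A1 (0.16 to -0.70), ALDH2 (0.57 to -0.35), ALDH3A2 (0.19 to -0.70), ALDH3B1 (0.16 to -0.47) and ALDH9A1 (0.75 to -0.16). For FBMSC_EV against PBS they were ALDH2 (0.86 to -0.16) and ALDH5A1 (0.28 to -0.04). For ABPC_EV against PBS, genes called numbered 9639 as deposited, and 0 after median-ratio scaling or with the erythroid list taken out.

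For FBMSC_EV against PBS the 28 genes called as deposited became 0 after median-ratio scaling, 0 with the erythroid list taken out, 184 with a pseudocount of 0.1, 1 with no filter and 1063 with only the 6 samples compared. Leaving out each library gave 13 (PBS replicate 1 left out) to 4526 (PBS replicate 3). It gave 73, 51 and 93 when FBMSC_EV replicate 1, 2 or 3 was left out, and 119 or 460 for ABPC_EV replicate 1 or 2. For ABPC_EV against FBMSC_EV the 68 became 0, 0, 9, 11 and 23 under the same settings, and 45 to 4863 with each library left out: 164 or 2512 for PBS replicate 2 or 3, 284 for FBMSC_EV replicate 2, and 4863, 372 or 45 for ABPC_EV replicate 1, 2 or 3.

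After scaling, 0 genes were called in each comparison. With no filter 4, 1 and 5 were called for ABPC_EV against PBS, FBMSC_EV against PBS and ABPC_EV against FBMSC_EV, and as deposited 9639, 28 and 68. By limma-voom, an alternative added after the data were seen, 1 was called for ABPC_EV against PBS. Leaving out each library gave 0 to 130 (130 when PBS replicate 3 was left out, 2 for PBS replicate 2, 3 for ABPC_EV replicate 2), 0 to 2 (2 without PBS replicate 2, 1 without FBMSC_EV replicate 3) and 0 to 1 (1 without FBMSC_EV replicate 3). The causes of these moves were not tested.

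Replicate numbers are shared by the groups, but the animals differ, and deviations of same-numbered libraries correlated between -0.22 and 0.24 as deposited, so the numbers were not taken to pair them. The replicate block gave 44 genes for FBMSC_EV against PBS and 3406 for ABPC_EV against FBMSC_EV as deposited, and 1 for FBMSC_EV against PBS after scaling; ALDH16A1 and ALDH18A1 then passed for ABPC_EV against FBMSC_EV as deposited (adjusted p = 0.0374 and 0.038). The planned count models were not run. The deposited values are log2 values and not counts, and limma-voom on the recovered reads was run in place of those models. Depth limits ALDH4A1, ALDH5A1 and ALDH7A1 most, with as few as 11, 18 and 6 recovered reads in a library.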
